A study of Mus musculus with 29 samples.

Results

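The interferon-induced genes and the genes of MHC class I antigen presentation were examined as a set of 40 genes, which were chosen by their symbols. The set holds 3 RNA sensors, 3 interferon regulatory factors, 14 antiviral effectors, 4 genes of the ubiquitin and ISG15 pathway, 2 PARP genes, 2 guanylate-binding GTPases, 5 other induced genes and 7 genes of MHC class I presentation. All 40 members were found among the 24732 entries of the tables of wild-type and Pax5(-/-) pro-B cells and among the 25588 entries of the Pax5(+/+) Meox2-cre tables. Of these, 37 passed the filter for the test, a mean above 1 TPM (a transcript level scaled by gene length and to the same sum in every library) in at least 1 genotype, whereas Ifit3, Mx1 and Ifi44 did not.

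Poly(A) RNA was sequenced from pro-B cells that were sorted from C57BL/6 mice, with 3 wild-type, 2 Pax5(-/-) and 3 Pax5(+/+) Meox2-cre libraries. Pax5 encodes the transcription factor that commits progenitors to the B cell lineage, and Pax5(-/-) cells carry no functional allele of it. By the study's methods, wild-type pro-B cells and Pax5-deficient progenitors were both gated as Kit+ but otherwise by different surface markers, with Ly6D used for the progenitors, so that genotype and gate cannot be told apart. The Meox2-cre mice express Cre recombinase broadly from the Meox2 locus, were 3 weeks old and gave pooled cells. The labels name them Pax5(+/+), while the study's sample list gives Pax5(+/-). The sources used here do not give the ages of the other mice or say that the 5 libraries came from separate mice, so the p-values measure only the spread between these libraries.

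The targeted gene Pax5 had 342, 386 and 391 TPM in the wild-type libraries, compared with 43.0 and 39.1 TPM in Pax5(-/-) cells. TPM values carry no read depth, and the commonest step between low values put the Pax5(-/-) libraries at 0.855 and 1.54 times the depth of wild-type replicate 1. Wild-type replicate 1 stood apart in the members: it was the lowest of the 3 wild-type libraries for 37 of the 40 members, while it was the lowest for 54.0% of all 12066 genes tested. Its summed level of 14 myeloid marker genes was 57.1 TPM, against 454 and 275 TPM in the other wild-type libraries and 78.0 and 137 TPM in the Pax5(-/-) libraries. The part of such cells in the results was not tested, and results that change without this library are given with both values. In bulk RNA, fewer cells of a type and less RNA per cell cannot be told apart.

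Interferons are secreted proteins that bind receptors on the cell surface, which activate JAK kinases and STAT transcription factors. STAT proteins join IRF9 and bind the interferon-stimulated response element, a pair of GAAA repeats in the promoters of interferon-induced genes, and many of these genes also have a basal level without infection. MHC class I molecules present peptides to T cells: the proteasome makes the peptides, the TAP transporter carries them into the endoplasmic reticulum, and a heavy chain pairs with β2-microglobulin to bind them. B lineage cells carry class I molecules on their surface from early stages on.

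To show what the promoters of these genes hold, RefSeq promoter sequences (build GRCm38.p6) were searched in the 250 bases before each annotated start, and 31 of the 40 members were matched by symbol. Dhx58, Oas2, Mx1, Usp18, Parp9, Parp14, Rtp4, Tap2 and Nlrc5 have no entry in the promoter table. The core GAAANNGAAA, searched on both strands, was present in 10 of the 31 members with a promoter (32.3%), compared with 936 of all 27025 genes in the table (3.46%) and 978 of its 32851 windows (2.98%). The letters TTCNNNGAA, the core of the STAT-binding gamma-activated site and the same on both strands, were present in 7 of the 31 members (22.6%) and in 8.13% of all genes. The members with the first core were Ifit1, Ifit3, Oas1a, Oas3, Rsad2, Bst2, Isg15, Gbp2, Gbp3 and B2m. A match is a description of the letters and not a measured binding site. The search counts only exact copies with this spacing, so near matches, such as gaaaatcgaaa in Lgals3bp, are not counted. The promoters of 6 members are printed, 4 with the core in capitals, and 2 of members with the largest changes in which these letters were not found; each reads 5′ to 3′ on the strand of its gene and ends at the base before the start.
B2m (chr2:122147437-122147686, plus strand): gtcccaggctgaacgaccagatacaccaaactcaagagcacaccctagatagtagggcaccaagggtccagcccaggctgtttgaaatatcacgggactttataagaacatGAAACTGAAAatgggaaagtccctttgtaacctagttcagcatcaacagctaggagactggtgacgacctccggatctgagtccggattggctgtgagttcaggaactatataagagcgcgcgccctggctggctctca
Ifit1 (chr19:34640639-34640888, plus strand): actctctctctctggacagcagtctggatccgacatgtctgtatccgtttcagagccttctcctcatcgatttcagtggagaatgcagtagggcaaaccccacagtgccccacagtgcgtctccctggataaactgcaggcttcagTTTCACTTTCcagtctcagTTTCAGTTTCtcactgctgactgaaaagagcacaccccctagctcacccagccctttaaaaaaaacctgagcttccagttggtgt
Isg15 (chr4:156200819-156201068, minus strand): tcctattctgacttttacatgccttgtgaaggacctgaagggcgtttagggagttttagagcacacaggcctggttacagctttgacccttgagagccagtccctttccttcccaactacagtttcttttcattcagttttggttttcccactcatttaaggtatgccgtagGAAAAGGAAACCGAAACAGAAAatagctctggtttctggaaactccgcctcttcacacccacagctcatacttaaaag
Rsad2 (chr12:26456453-26456702, minus strand): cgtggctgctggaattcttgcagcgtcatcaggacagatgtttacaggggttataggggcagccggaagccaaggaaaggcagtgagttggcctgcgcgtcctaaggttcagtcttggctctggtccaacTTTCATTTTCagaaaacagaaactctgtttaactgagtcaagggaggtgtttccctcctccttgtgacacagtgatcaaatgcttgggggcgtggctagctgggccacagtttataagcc
Irf7 (chr7:141266425-141266674, minus strand): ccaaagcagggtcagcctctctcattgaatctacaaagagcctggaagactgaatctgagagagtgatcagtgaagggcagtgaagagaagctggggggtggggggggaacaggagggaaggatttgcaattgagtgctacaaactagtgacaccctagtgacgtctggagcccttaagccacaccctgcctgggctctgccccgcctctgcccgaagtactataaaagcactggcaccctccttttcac
Lgals3bp (chr11:118401960-118402209, minus strand): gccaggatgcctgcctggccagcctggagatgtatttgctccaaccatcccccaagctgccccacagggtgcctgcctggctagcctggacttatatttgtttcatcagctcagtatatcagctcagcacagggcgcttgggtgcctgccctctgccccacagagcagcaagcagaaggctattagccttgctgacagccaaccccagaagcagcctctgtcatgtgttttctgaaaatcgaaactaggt

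The question asked of the wild-type and Pax5(-/-) libraries was which of the members depend on Pax5 in early B cell progenitors. Levels spanned more than 3 orders of magnitude within the wild-type cells, from 1749 ± 249.6 TPM for B2m to 0.347 ± 0.208 TPM for Mx1 (SD, n = 3), the gene of an antiviral GTPase that carries a large deletion in C57BL/6 mice. In wild-type cells, 36 members had a mean above 1 TPM, 33 above 5 TPM and 7 above 100 TPM. The 7 members above 100 TPM were Bst2 and all genes of MHC class I presentation but Nlrc5. The plot of levels by library shows every value.

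**Figure D1:**
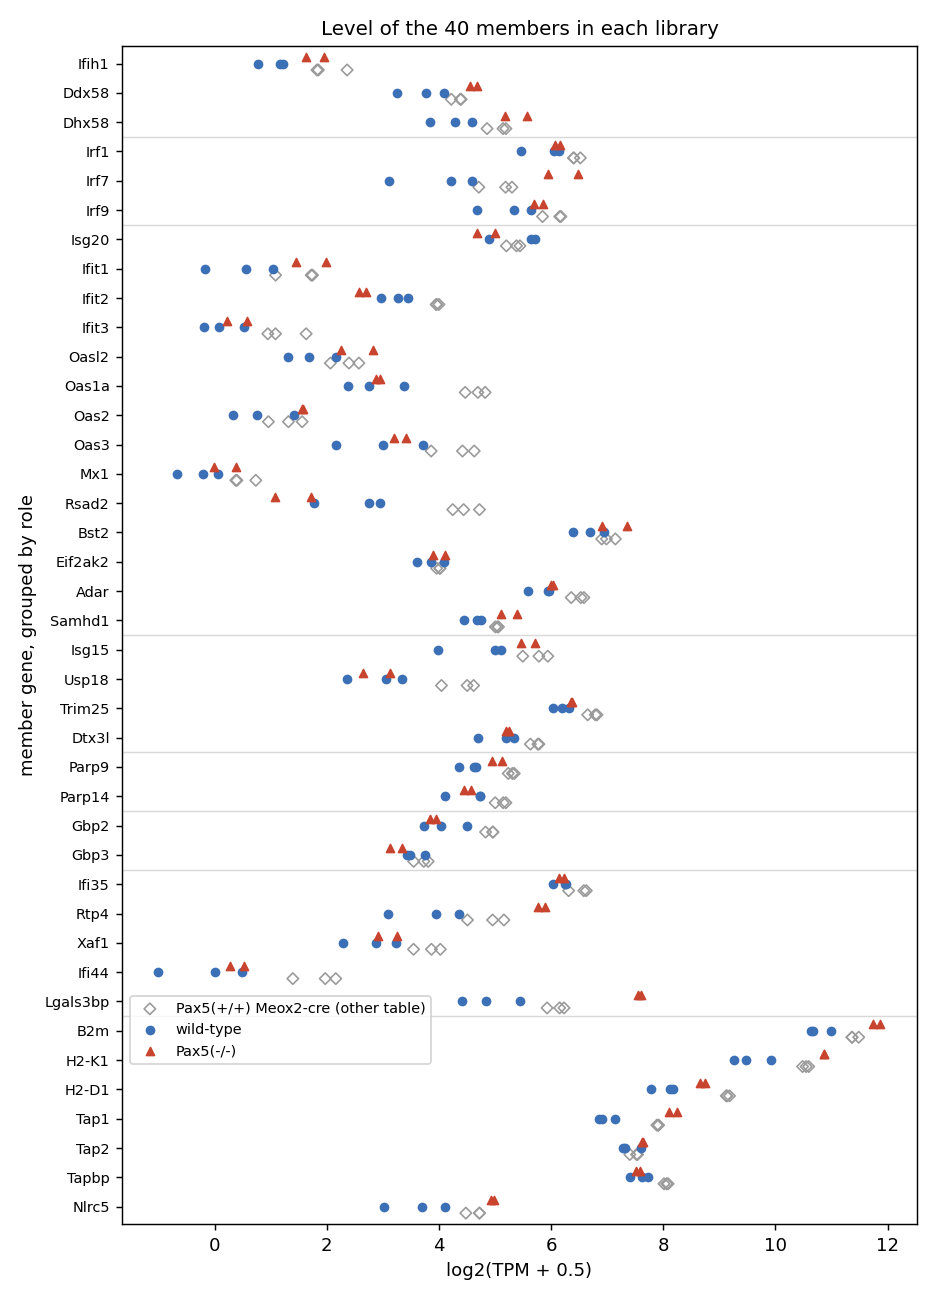
Level of each of the 40 members on the log2(TPM + 0.5) scale, grouped by role; each point is 1 library (3 wild-type, 2 Pax5(-/-), and 3 Pax5(+/+) Meox2-cre from a separately normalized table). The Pax5(-/-) points of Irf7, Rtp4, Lgals3bp, B2m, H2-K1, Tap1 and Nlrc5 lie to the right of every wild-type point, and those of Ifit2, Rsad2 and Gbp3 to the left.

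In Pax5(-/-) cells, 13 of the 37 members tested were higher with an adjusted p-value below 0.05 (limma on log2(TPM + 0.5), Benjamini-Hochberg over 12066 genes), where 15.6% of all genes tested were higher by the same rule. None of the 37 was lower at that threshold, compared with 21.5% of all genes tested. At an unadjusted p below 0.05, limma gave 17 members higher and 2 lower. Under the study's stricter call, which in addition requires over 3-fold difference and over 5 TPM on average in a genotype, 3 members were called higher, Irf7, Rtp4 and Lgals3bp (2.71% of all genes tested), and 0 were called lower (3.15%). With a 2-fold threshold in place of 3-fold, 8 members were called higher (5.22% of all genes tested). Both Pax5(-/-) libraries lay above all wild-type libraries for 21 members (26.1% of all genes tested) and below them for 3 members (37.4%). Without wild-type replicate 1, 12 members were higher and 3 were lower at an adjusted p-value below 0.05. In that fit, 5075 of all 12127 genes tested were below 0.05, and 1842 of them were higher. With 1 Pax5(-/-) library in the fit, fewer of the members and fewer of all genes tested passed. The median log2 fold change of the members was then 0.58 without replicate 1 and 0.28 without replicate 2. In these fits the lone library was assumed to vary like the others. With all libraries, the median log2 fold change of the members tested was 0.46, beside a median of -0.12 over all genes tested. Rescaling the libraries by median ratios moved the median of all genes to -0.0042. At an adjusted p-value below 0.05, 17 members were then higher and 1 lower, beside 4670 of all 12059 genes tested, 2410 of them higher. A shift of the whole log2 scale of about 0.1 thus belongs to every log2 fold change given here.

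**Figure D2:**
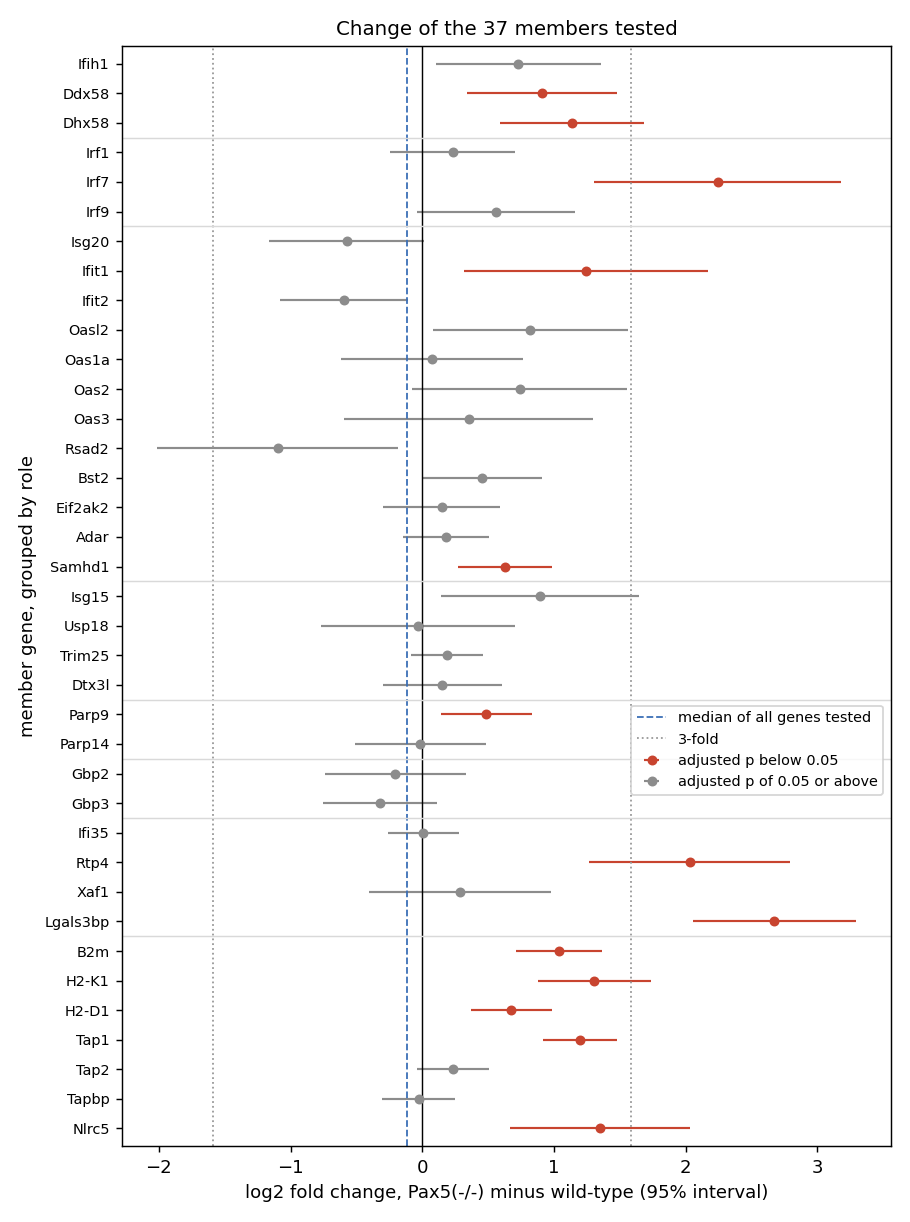
Log2 fold change (Pax5(-/-) minus wild-type, on the log2(TPM + 0.5) scale) of the 37 members tested, with 95% confidence intervals from limma, grouped by role. The 13 members in red had an adjusted p-value below 0.05 and all of them lie to the right of 0; the dashed line is the median of all genes tested at -0.12, and the dotted lines mark 3-fold.

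The RNA sensors were higher in Pax5(-/-) cells for 2 of 3 genes. Dhx58 (chromosome 11 from 100556018 to 100565585 in mm9, as are all gene positions that follow), which encodes the regulatory sensor LGP2, was measured at 13.9, 23.7 and 19.0 TPM in wild-type and at 35.8 and 47.2 TPM in Pax5(-/-) libraries, with a log2 fold change of 1.14 (SE, the standard error of the fit, 0.23, adjusted p = 0.00826). Ddx58 (chromosome 4 from 40150806 to 40186861), the gene of the RNA helicase RIG-I, was measured at 9.04, 16.5 and 13.2 TPM in wild-type and at 23 and 25 TPM in Pax5(-/-) libraries (log2 fold change 0.91, adjusted p = 0.0228). For both genes, the Pax5(-/-) values lay above every wild-type value. Ifih1, which encodes the related sensor MDA5, had a low level of 1.60 ± 0.339 TPM (SD, n = 3) in wild-type and 2.98 ± 0.573 TPM (SD, n = 2) in Pax5(-/-) cells, and its adjusted p-value was 0.0673. With a single Pax5(-/-) library left in the fit, the adjusted p-values of Dhx58 were 0.0544 and 0.136, and those of Ddx58 were 0.142 and 0.204.

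Of the 3 interferon regulatory factors, Irf7 changed and the others did not pass the test. Irf7 (chromosome 7 from 148448605 to 148452380) encodes the factor that drives transcription of type I interferon genes. Its level was 8.11, 23.5 and 18.2 TPM in wild-type and 61.4 and 88.4 TPM in Pax5(-/-) libraries, and the lowest Pax5(-/-) value exceeded the highest wild-type value. The log2 fold change was 2.24 (SE 0.40, adjusted p = 0.00459). Without wild-type replicate 1, which held the lowest value, the log2 fold change fell to 1.81, and without the second Pax5(-/-) library it was 1.98. Irf9, the DNA-binding partner of STAT proteins, was measured at 25.2, 49.6 and 39.8 TPM in wild-type and at 51.6 and 57.4 TPM in Pax5(-/-) libraries, and its adjusted p-value was 0.127 (0.0494 without wild-type replicate 2). Irf1, a factor that is rapidly induced by interferon, lay between 43.5 and 70.3 TPM in wild-type cells and at 71.2 and 66.6 TPM in Pax5(-/-) cells, so that the groups overlapped.

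Among the 14 antiviral effectors, 12 were tested and 2 were higher, with a median log2 fold change of 0.27. Samhd1 (chromosome 2 from 156923265 to 156961001), the gene of an enzyme that degrades deoxynucleotides, was measured at 26.3, 21.2 and 25.1 TPM in wild-type and at 34.1 and 41.5 TPM in Pax5(-/-) libraries, giving a log2 fold change of 0.63 (SE 0.15, adjusted p = 0.0162). It was 1 of the few members for which wild-type replicate 1 was not the lowest wild-type library. Ifit1 (chromosome 19 from 34715361 to 34724499), which encodes a protein that binds viral RNA, was low in all libraries, with 0.384, 1.55 and 0.974 TPM in wild-type and 2.25 and 3.45 TPM in Pax5(-/-) libraries (log2 fold change 1.25, adjusted p = 0.0429). Without wild-type replicate 1, the values for Ifit1 were 0.92 and 0.0514. With a single Pax5(-/-) library, the adjusted p-values of Samhd1 were 0.0668 and 0.194 and those of Ifit1 were 0.116 and 0.275. The Ifit1 promoter printed above holds 2 separate copies of the core, 104 to 95 and 85 to 76 bases before the start.

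The other effectors went in both directions without passing the test. Rsad2, the gene of the radical-SAM enzyme viperin, was measured at 2.91, 7.22 and 6.24 TPM in wild-type and at 2.78 and 1.60 TPM in Pax5(-/-) libraries, with both Pax5(-/-) values below every wild-type value and an adjusted p-value of 0.0616. Ifit2, a neighbor and relative of Ifit1, was measured at 7.31, 9.15 and 10.4 TPM in wild-type and at 5.96 and 5.44 TPM in Pax5(-/-) libraries (adjusted p = 0.0578). Isg20, the gene of a 3′ to 5′ RNA exonuclease, lay at 29.2, 51.7 and 49.4 TPM in wild-type and at 31.5 and 25.1 TPM in Pax5(-/-) libraries (adjusted p = 0.113). Without wild-type replicate 1, these 3 genes were lower in Pax5(-/-) cells, with log2 fold changes of -1.46 for Rsad2 (adjusted p = 0.00797), -0.73 for Ifit2 (0.0184) and -0.83 for Isg20 (0.00689). The count of lower members was thus 3 without this library and 0 with it. Without it, 5075 of all 12127 genes tested were below 0.05, and 1842 of them were higher. Bst2, the gene of the virion-tethering protein tetherin and a surface marker of plasmacytoid dendritic cells, was the highest effector at 103 ± 20.1 TPM (SD, n = 3) in wild-type and 141 ± 30.4 TPM (SD, n = 2) in Pax5(-/-) cells (adjusted p = 0.10).

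The oligoadenylate synthetases, which make the second messenger that activates RNase L, did not pass the test. Oas1a was measured at 4.69, 9.87 and 6.22 TPM in wild-type and at 6.82 and 7.21 TPM in Pax5(-/-) libraries, and Oas3 at 4.00, 12.6 and 7.47 TPM and at 8.70 and 10.2 TPM, respectively. Both genes overlapped between genotypes. The log2 fold changes of Oas2 (0.74) and of the related Oasl2 (0.82) had adjusted p-values of 0.135 and 0.0786. Oas1a has close paralogs in a gene cluster, and reads shared with them could have been split. Eif2ak2, which encodes the RNA-dependent kinase PKR, and Adar, which encodes an RNA-editing enzyme, had log2 fold changes of 0.15 and 0.18, with adjusted p-values of 0.567 and 0.346. Ifit3 and Mx1, which were too low for the test, had means of 0.621 and 0.347 TPM in wild-type and 0.826 and 0.648 TPM in Pax5(-/-) cells.

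None of the 4 genes of the ubiquitin and ISG15 pathway passed the test. Isg15, the ubiquitin-like modifier, was measured at 15.2, 34.0 and 31.4 TPM in wild-type and at 43.5 and 52.0 TPM in Pax5(-/-) libraries. Its Pax5(-/-) values lay above every wild-type value, with a log2 fold change of 0.89 (SE 0.32, adjusted p = 0.0634). Without wild-type replicate 1 the log2 fold change of Isg15 was smaller at 0.54, but the wild-type spread was smaller as well and the adjusted p-value was 0.0241. The promoter of Isg15 has 3 overlapping copies of the core between 78 and 57 bases before its start, the most of any member. Usp18, the protease that removes ISG15 from its targets, overlapped between genotypes, with 4.65, 9.68 and 7.81 TPM in wild-type and 5.77 and 8.24 TPM in Pax5(-/-) libraries. Trim25, the ubiquitin ligase of RIG-I, and Dtx3l, a ubiquitin ligase that pairs with PARP9, had log2 fold changes of 0.19 and 0.15, with 95% intervals from -0.085 to 0.46 and from -0.30 to 0.60.

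Parp9 (chromosome 16 from 35938556 to 35972691) encodes the ADP-ribosyltransferase that binds DTX3L. It was measured at 20.1, 24.7 and 24.1 TPM in wild-type and at 30.3 and 34.5 TPM in Pax5(-/-) libraries, a log2 fold change of 0.49 (SE 0.15, adjusted p = 0.0365). This was the smallest change among the 13 members that passed, and its adjusted p-value was 0.0536 without wild-type replicate 1, 0.0547 without replicate 2, and 0.132 and 0.287 with a single Pax5(-/-) library. Parp9 and Dtx3l lie head to head and overlap at their starts, and the entries of both carry a mark read here as overlap with another gene, so that their reads are uncertain near the starts. Parp14, a further ADP-ribosyltransferase of the same cluster, had a log2 fold change of -0.013 and overlapped between genotypes. The guanylate-binding GTPases Gbp2 and Gbp3, which attack the vacuoles of intracellular pathogens, had log2 fold changes of -0.20 and -0.32, with adjusted p-values of 0.517 and 0.208.

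Of the other induced genes, 4 were tested and 2 were higher, Lgals3bp and Rtp4. Lgals3bp (chromosome 11 from 118254065 to 118263406), the gene of a secreted glycoprotein that binds galectins, was measured at 20.8, 43.0 and 28.2 TPM in wild-type and at 186 and 194 TPM in Pax5(-/-) libraries. The Pax5(-/-) mean was 6.20 times the wild-type mean, and the log2 fold change was 2.67 (SE 0.26, adjusted p = 3.1e-04). Rtp4 (chromosome 16 from 23610005 to 23614308), the gene of a chaperone of receptors that reach the cell surface, was measured at 8.05, 19.9 and 14.9 TPM in wild-type and at 53.7 and 59.1 TPM in Pax5(-/-) libraries (log2 fold change 2.03, SE 0.33, adjusted p = 0.00303). In both genes, every Pax5(-/-) value was above the highest wild-type value. Lgals3bp had an adjusted p-value below 0.05 under all 14 alternatives, with log2 fold changes between 2.43 and 2.95, whereas Rtp4 reached 0.0508 and 0.0686 with a single Pax5(-/-) library.

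The remaining 3 induced genes did not pass the test or were too low for it. Ifi35, which encodes a leucine zipper protein of the interferon response, was measured at 64.8, 76.4 and 75.3 TPM in wild-type and at 70.1 and 74.9 TPM in Pax5(-/-) libraries, and the 95% interval of its log2 fold change ran from -0.26 to 0.28. Xaf1, the gene of a pro-apoptotic protein, overlapped between genotypes as well, with 4.39, 6.84 and 8.90 TPM and 7.01 and 9.05 TPM (adjusted p = 0.481). Ifi44 was listed at 0 in wild-type replicate 1 and remained below 1 TPM in the other 4 libraries.

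**Figure D3:**
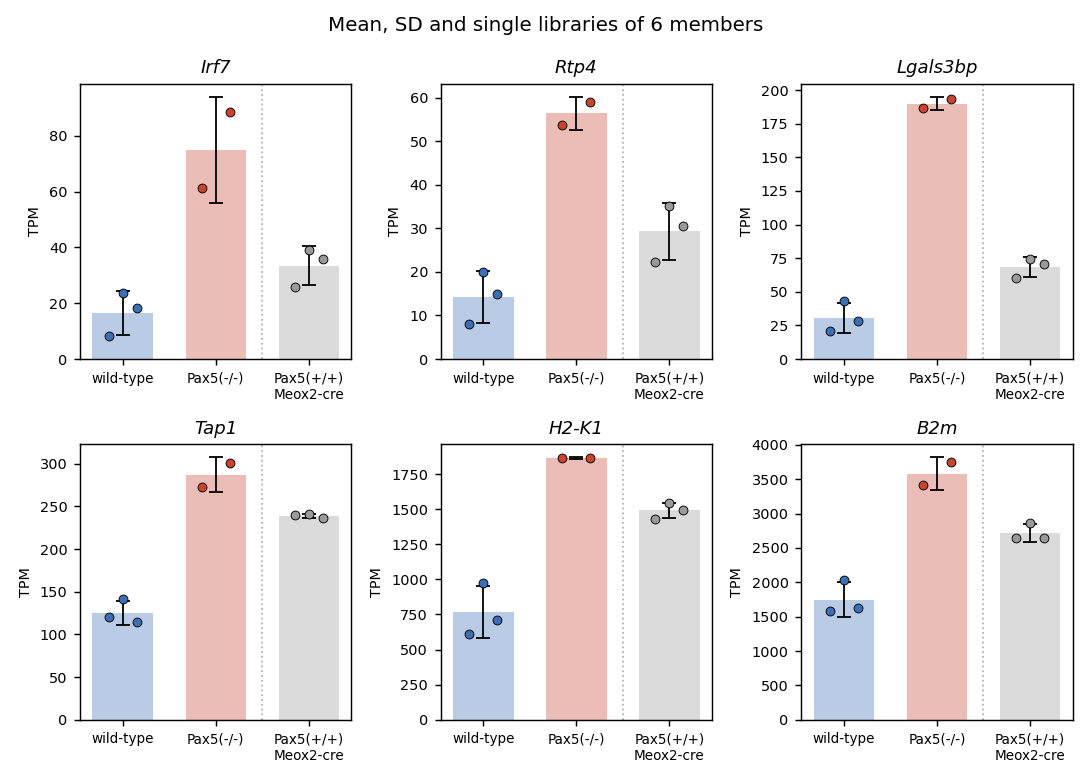
TPM of 6 members in the wild-type (n = 3), Pax5(-/-) (n = 2) and Pax5(+/+) Meox2-cre (n = 3) libraries; bars are means, error bars are SD, points are libraries, and the dotted line separates the Meox2-cre libraries, whose table was aligned and normalized separately. Both Pax5(-/-) points lie above all 3 wild-type points in each panel, and the Meox2-cre means lie between those of the other groups.

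MHC class I presentation was the role with the most members that passed: 5 of 7 were higher in Pax5(-/-) cells at an adjusted p-value below 0.05 and 2 did not pass, with a median log2 fold change of 1.04, and 0 were called over 3-fold. B2m (chromosome 2 from 121973422 to 121978819), the gene of the light chain of all class I molecules, was measured at 1584, 2036 and 1627 TPM in wild-type and at 3410 and 3747 TPM in Pax5(-/-) libraries, a log2 fold change of 1.04 (SE 0.14, adjusted p = 0.00129). It ranked between 43 and 62 among all entries in the wild-type libraries and at 25 in both Pax5(-/-) libraries. H2-K1 (chromosome 17 from 34132962 to 34137278), a classical heavy chain gene, was measured at 614, 974 and 713 TPM in wild-type and at 1861 and 1867 TPM in Pax5(-/-) libraries (log2 fold change 1.31, SE 0.18, adjusted p = 0.00162). Its rank moved from between 116 and 233 to 51 and 52. The summed level of the 7 genes was between 2898 and 3843 TPM in wild-type and 6358 and 6763 TPM in Pax5(-/-) libraries, so the groups did not overlap.

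The second classical heavy chain gene, H2-D1 (chromosome 17 from 35399675 to 35404444), had a smaller fold change. It was measured at 219.9, 276 and 287 TPM in wild-type and at 402 and 427 TPM in Pax5(-/-) libraries (log2 fold change 0.68, SE 0.13, adjusted p = 0.00643), and the difference to H2-K1 was not tested. The heavy chain genes are near-identical in parts, and the entry of H2-D1 carries the overlap mark, so the split of reads between them is uncertain. H2-L, a heavy chain gene of other strains, was listed at 0 in all libraries.

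Of the genes for peptide transport and loading and their regulator, Tap1 and Nlrc5 were higher. Tap1 (chromosome 17 from 34324498 to 34334170), which encodes 1 of the 2 subunits of the peptide transporter, was measured at 120.1, 141 and 115 TPM in wild-type and at 273 and 301 TPM in Pax5(-/-) libraries (log2 fold change 1.2, SE 0.12, adjusted p = 3.2e-04). Tap2, which encodes the partner subunit, was measured at 156, 193 and 159 TPM in wild-type and at 197 and 199 TPM in Pax5(-/-) libraries, with a log2 fold change of 0.23 and an adjusted p-value of 0.159 (0.0439 without wild-type replicate 2). Tapbp, the gene of tapasin, which bridges the transporter and the class I molecule, overlapped between genotypes, with 197, 210.5 and 168 TPM in wild-type and 183 and 192 TPM in Pax5(-/-) libraries. Nlrc5 (chromosome 8 from 96996663 to 97051172), the transactivator of class I genes, was measured at 7.62, 12.5 and 16.7 TPM in wild-type and at 31.2 and 29.9 TPM in Pax5(-/-) libraries (log2 fold change 1.35, SE 0.29, adjusted p = 0.0101), and its entry carries the overlap mark.

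B2m, H2-K1 and Tap1 had adjusted p-values below 0.05 under all 14 alternatives, with log2 fold changes between 0.92 and 1.15, between 1.16 and 1.49 and between 1.13 and 1.31. With a single Pax5(-/-) library, H2-D1 reached 0.0629 and 0.0945, and Nlrc5 0.111 and 0.115. In wild-type replicate 1, the median deviation from the wild-type mean was -0.13 on the log2 scale for these 7 genes, and -0.42 for the 33 members outside class I, beside -0.096 for all genes tested. The core GAAANNGAAA was found in 1 of the 5 class I members with a promoter, in B2m, 139 to 130 bases before the start. The windows of H2-K1 and H2-D1 hold the near match tttcacttct, which the search did not count.

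The response element core was found both in members that passed the test and in members that did not. Of the 9 members with a promoter that passed the test, 2 held the core, compared with 7 of the 20 members with a promoter that were tested and did not pass. The promoters of Irf7 and Lgals3bp, with the largest changes among the printed ones, did not hold these letters in this window, while that of Rsad2, which was lower in value in Pax5(-/-) cells, held 1 copy. These counts are a description and were not tested.

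**Figure D4:**
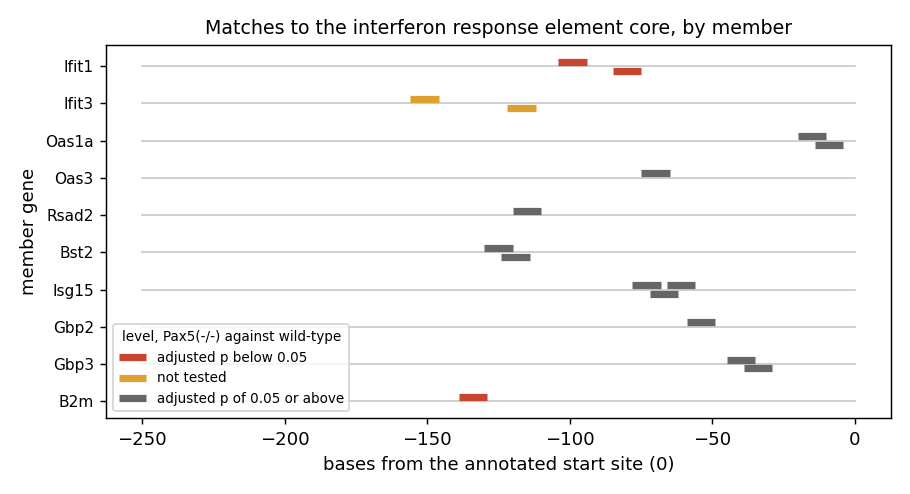
Position of each GAAANNGAAA match (either strand) in the 250 bases before the annotated start of the 10 members that hold one, with the start at 0; overlapping matches are drawn at different heights. Bars of Ifit1 and B2m are red (adjusted p-value below 0.05), those of Ifit3 are yellow (not tested), and matches lie between 156 and 5 bases before the start.

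Because the members respond to interferon, the genes of the ligands, the receptors and the signal were examined next. Of the 10 interferon genes listed in the tables, 8, among them Ifnb1 and 4 Ifna genes, were listed at 0 in all 8 libraries, and Ifng and Ifnk did not exceed 0.181 TPM in any library. Among the 13 genes of the receptors and the signal, 4 were higher and 2 lower in Pax5(-/-) cells, beside 15.6% and 21.5% of all genes tested. Ifngr1, a chain of the interferon γ receptor, was measured at 83.5, 80.5 and 89.8 TPM in wild-type and at 242 and 257 TPM in Pax5(-/-) libraries (log2 fold change 1.55, adjusted p = 4.2e-05 from limma). Ifnar1 and Ifnar2, the chains of the type I receptor, had log2 fold changes of 0.76 and 0.70. Socs1, an inhibitor of JAK kinases, was higher by 1.59 and was the only gene of this list that was called, whereas Socs3, a related inhibitor, was lower with a log2 fold change of -1.29, as was Jak2 with -0.84. Stat2 overlapped between genotypes.

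Genes that sense nucleic acids or relay the signal to interferon genes changed in both directions, with 4 of 15 genes tested higher and 3 lower. The shares over all genes tested were 15.6% higher and 21.5% lower. Tlr7, a receptor for single-stranded RNA in endosomes, was measured at 0.845, 2.09 and 1.11 TPM in wild-type and at 12.7 and 13.2 TPM in Pax5(-/-) libraries (log2 fold change 2.92). Mb21d1 and Tmem173, which encode the DNA sensor cGAS and its adaptor STING, had log2 fold changes of 2.07 and 1.64, and Ikbke, a kinase of IRF3 and IRF7, of 0.88. Irf8, a factor of myeloid and B lineage cells, was lower with a log2 fold change of -2.06, followed by the adaptor genes Traf6 (-0.74) and Myd88 (-0.37).

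A further list of 42 other interferon-induced genes that were tested had a median log2 fold change of 0.095, with 10 genes higher and 9 lower. By the same rule, 15.6% of all genes tested were higher and 21.5% lower, so the lower count is near the share of all genes. Among the genes with an adjusted p-value below 0.05, Ly6a (2.08), Oasl1 (1.73), Gbp6 (1.64) and Ifitm3 (1.55) had the largest increases. Ifi30 (-2.12), Slfn2 (-1.73), Ube2l6 (-1.44) and Lgals9 (-1.18) had the largest decreases among them, and Ube2l6 encodes the conjugating enzyme that transfers ISG15. Of these, Lgals9 had the highest level, with 1736, 1615 and 1715 TPM in wild-type and 737 and 753 TPM in Pax5(-/-) libraries. The members had 13 genes higher and 0 lower, and the difference between the lists was not tested.

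In the proteasome and peptide loading list, 4 of 10 genes were higher and 0 lower, and 9 of 10 log2 fold changes were above 0. For this list and for the other class I genes below, the shares over all genes tested were 15.6% higher and 21.5% lower. The genes that passed were Psme1 (0.63) and Psme2 (0.41), which encode the proteasome activator PA28, and Psmb8 (0.47) and Psmb9 (0.37), which encode subunits of the immunoproteasome. Psmb9 shares its promoter region with Tap1, and its change was smaller, with 347, 334 and 324 TPM in wild-type and 415 and 449 TPM in Pax5(-/-) libraries. Among other genes of the class I family, H2-Q4 (0.98) and H2-T23 (0.79) were higher and Cd1d1, which presents lipids, was lower (-1.63), out of 11 tested. The entries of H2-Q6, H2-Q7 and H2-Q8 were listed at 0 in every library and carry the overlap mark, so their levels are uncertain.

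**Figure D5:**
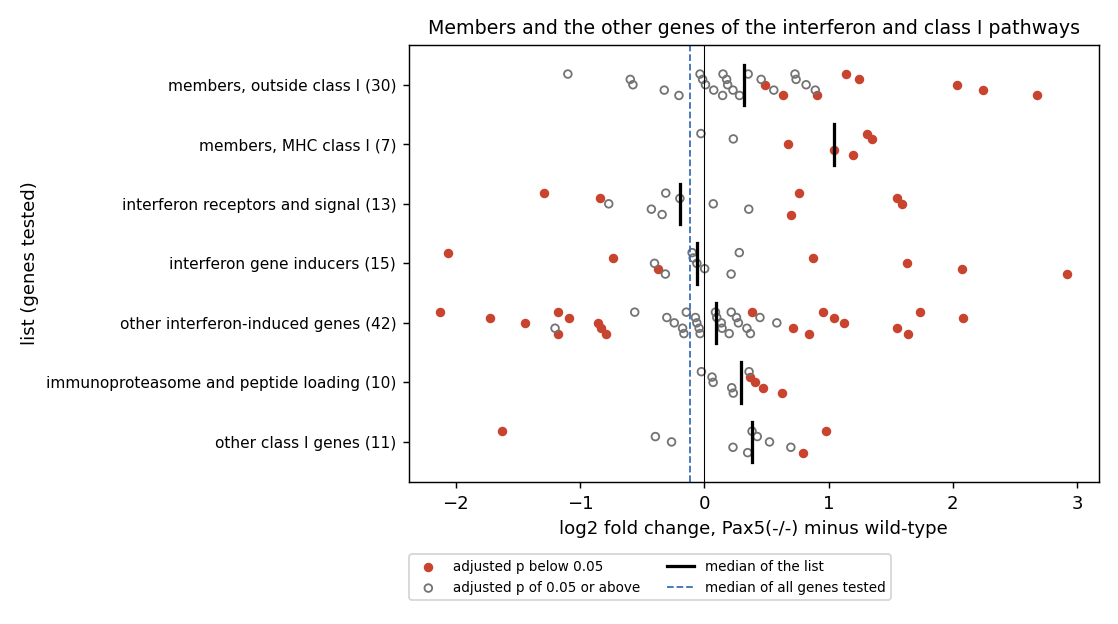
Log2 fold change (Pax5(-/-) minus wild-type) of each gene tested in the members and in 5 other lists of the interferon and class I pathways; filled points had an adjusted p-value below 0.05, black bars are list medians and the dashed line is the median of all genes tested. The members of MHC class I have the highest median (1.04), and the list of other induced genes (0.095) has filled points on both sides of 0.

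Markers of other cell types were compared beside these results, since Tlr7, Bst2 and Irf7 are also typical of plasmacytoid dendritic cells. Of 15 markers of plasmacytoid dendritic cells, 11 were tested, 5 were higher and 2 lower in Pax5(-/-) cells. Siglech was measured at 0.106, 0.570 and 1.12 TPM in wild-type and at 1.79 and 9.06 TPM in Pax5(-/-) libraries, and Runx2 at 0.696, 1.61 and 1.16 TPM and at 7 and 10.8 TPM, respectively, while Ccr9 and Lag3 did not exceed 1.15 TPM in any of the 5 libraries. Spib and Tcf4, factors of both B cells and these dendritic cells, were lower, with log2 fold changes of -1.82 and -0.69. The summed level of the 15 markers was between 762 and 861 TPM in wild-type and 445 and 552 TPM in Pax5(-/-) libraries. The highest value of a single marker in any library was 738 TPM, so this sum mostly follows the most abundant markers. The list also holds Bst2 and Tlr7, which are described above. Of 12 tested myeloid markers, 2 were higher and 2 lower, and S100a8 and S100a9 had 2.26 and 4.35 TPM in wild-type replicate 1, but 58.3 and 84.1 TPM in replicate 2. Of 9 tested markers of T and NK cells, 3 were higher and 4 lower, and 1 was called in each direction. The summed level of the T and NK cell markers was between 46.3 and 94.9 TPM in wild-type and 81.7 and 92.3 TPM in Pax5(-/-) libraries. Of the erythroid markers, 4 of 7 tested entries were lower and 0 higher, with a summed level between 117 and 292 TPM in wild-type and of 89 and 37 TPM in Pax5(-/-) libraries. Of 14 pro-B cell genes, 9 were lower and 0 higher. Beside all these marker counts, 15.6% of all genes tested were higher and 21.5% lower. The part of other cells in the members' levels was not tested.

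The 3 Pax5(+/+) Meox2-cre libraries gave a second set of levels in cells with Pax5, in a table that was aligned to mm10 with other software and normalized separately, so that no test was made across the tables. Their values were close to each other: B2m was measured at 2639, 2865 and 2638 TPM, H2-K1 at 1431, 1544 and 1495 TPM and Tap1 at 239.8, 241 and 236 TPM. For 33 of the 40 members, and 30 of the 37 tested, all Meox2-cre values lay above all wild-type values, and for 0 they lay below. Over the 11515 genes tested that both tables list once, these shares were 35.0% and 11.2%, which includes what the different pipelines contribute. The summed level of the 14 myeloid marker genes was 938, 1911 and 739 TPM in the Meox2-cre libraries. It was between 57.1 and 454 TPM in wild-type libraries. Meox2-cre replicate 2, with the highest of these sums, was the highest library of its group for 28 of the 40 members. The part of such cells in these levels was not tested. Against the Pax5(-/-) libraries, all Meox2-cre values lay below for 11 of the 37 members tested and above for 18, near the shares of 27.1% and 54.5% over the 11515 genes.

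Single members differed in where the Meox2-cre levels lay. Irf7 (25.7, 38.9 and 36.0 TPM), Rtp4 (22.3, 35.2 and 30.6 TPM), Lgals3bp (60.4, 74.6 and 70.6 TPM), B2m, H2-K1 and Tap1 had Meox2-cre levels between the wild-type and Pax5(-/-) values. Oas1a (21.6, 27.8 and 25.4 TPM), Usp18 (16, 24.1 and 22.2 TPM) and Rsad2 (21.2, 25.9 and 18.5 TPM) had Meox2-cre levels above both other groups. H2-D1 (557, 580 and 562 TPM) also lay above the Pax5(-/-) values, in a gene whose reads are uncertain. Among the Meox2-cre libraries, replicate 1 was the lowest for 31 of the 40 members, with a median deviation of -0.12 on the log2 scale from the mean of the group.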

How the data were processed

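The authors deposited TPM values per gene, 1 table for each library. Per the labels and the study's methods, the authors aligned reads of the wild-type and Pax5(-/-) libraries to mm9 with TopHat 1.4.1a and counted them with featureCounts 1.5.0 on a modified refGene annotation, and they used STAR 2.4.2a on mm10 for the Meox2-cre libraries. Counts are not used here, and the depth in reads is unknown. Entries were matched to members by the name before any mark. The members and all lists were chosen with earlier results of these data known.

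The test of genotype was fitted by limma 3.58.1 (R 4.3.3; lmFit and eBayes, trend on) to log2(TPM + 0.5) values. This scale understates changes of low genes. The fit held the 12066 genes whose mean exceeded 1 TPM in a genotype, with Benjamini-Hochberg adjustment over all of them. Calls follow the study's thresholds (adjusted p-value below 0.05, more than 3-fold, mean above 5 TPM, no immunoglobulin or T cell receptor genes). An exact permutation test of 3 against 2 libraries cannot give a p below 0.1. The fit was tested on simulated data for this comparison: with 12066 genes, it recovered 73 of 100 genes changed 2-fold and 95 of 100 changed 6-fold. Of the 11866 genes left unchanged, 9 passed. The simulated spread was independent between genes, so a shift shared by many genes, as in wild-type replicate 1, was not simulated. All 40 members are described by role, with every library's value for those that passed, and up to 4 genes per direction for each other pathway list; further genes named in the text (Stat2, Psmb9, the marker genes) were singled out after their values were seen. Gene positions are from the mm9 annotation of GENCODE and promoters from RefSeq. Tables and figures were made with Python 3.11.15, pandas 2.3.3 and matplotlib 3.10.9. The ChIP-seq samples are not analysed here.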

Additional observations from a re-analysis of the deposited data

How the results depend on the processing

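No paired analysis was possible because GEO's labels number no replicates. Of 515 log2 fold changes of members under the 14 alternatives, 450 kept their direction and side of the threshold, 27 were no longer below 0.05, 19 came below it and 19 changed sign. With a 2-fold threshold, 8 members were called higher. The count of members lower was 1, Ifit2, with median ratios (adjusted p = 0.0432), with quantile normalization (0.0259) and with eBayes without trend (0.0481). Leaving out 1 wild-type library in turn gave 12 to 14 members higher, 0 to 3 lower and 3 to 4 called higher. Of all genes tested, 1597 to 1977 were higher in these fits. Fewer of the members and fewer of all genes tested passed when a Pax5(-/-) library was left out, a fit in which the lone library is assumed to vary like the others. Signs changed for 7 members, none with an adjusted p-value below 0.05. With median ratios and quantile normalization, Parp14 was 0.099 and 0.094, Tapbp 0.088 and 0.051 and Usp18 0.075 and 0.059. Leaving out 1 library in turn, the log2 fold changes ran from -0.22 to 0.093 for Parp14, -0.12 to 0.043 for Tapbp, -0.31 to 0.21 for Usp18, -0.065 to 0.057 for Ifi35, -0.15 to 0.35 for Oas1a, -0.041 to 0.73 for Oas3 and -0.037 to 0.28 for Dtx3l. The causes were not tested. Depth in reads is unknown, so levels near 1 TPM have no counting interval.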
